A study of Mus musculus with 4 samples.

Results

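The 10 transcription factors examined here, Otx2, Crx, Nrl, Nr2e3, Rorb, Neurod1, Prdm1, Esrrb, Thrb and Rxrg, were chosen by name for their known roles in photoreceptors, and they are 10 of the 21827 genes of the tables. All 10 were present with an OK status in every library. RNA-seq libraries had been made from mouse retina at postnatal day 12 (P12), on the slc:ICR background. Retinal cells were stained for Cd73, a surface enzyme of rods and their precursors that is encoded by Nt5e, and were sorted into a Cd73-positive (Cd73P) and a Cd73-negative (Cd73N) fraction. Each fraction came from wild-type (WT) normal littermates and from mice labelled Ezh2-cKO, in which a floxed Ezh2 allele was combined with DKK3-Cre, a driver active in retinal progenitor cells. Ezh2 is the methyltransferase of the Polycomb complex PRC2, and because Cre acted in progenitors, both fractions hold cells that descend from progenitors exposed to it. Each of the 4 groups held 1 library. The number of retinas behind each P12 library is not given in the sources used here.

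Photoreceptors are specified in a hierarchy. Otx2 gives progenitors the photoreceptor fate and turns on Crx, which drives many genes of rods and cones. Nrl, with its target Nr2e3, directs precursors to become rods, while Thrb and Rxrg act in cones, where they set the choice of opsin. Otx2, Crx and Neurod1 are also used outside rods, among others in bipolar cells or cones.

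Values are FPKM, in which fragment counts are divided by exon length and by library size, so levels can be set side by side between genes. Each value is given with a standard error (SE) taken from the deposited bounds, which covers counting error within a library only. A group of 1 library leaves no replicate check and no test of a difference, and no p-value is given. Differences are of log2(FPKM + 1), a scale that understates the change of low genes, and a gene was called higher or lower at 1.5-fold, 0.585 on that scale. In sorted bulk samples, fewer cells of a type and less RNA per cell cannot be told apart.

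The libraries were of similar depth. Relative to Cd73N WT, depth ranged from 0.995 to 1.17, and the fragments implied by the bounds ranged over the members from 79 for Rxrg in Cd73P WT to 84803 for Crx in the same library. The fraction labels held, since Nt5e was at 0.61 to 0.84 FPKM in Cd73N and at 123 to 125 FPKM in Cd73P. The genotype label was not borne out by the Ezh2 level in Cd73N, where Ezh2 was at 14.1 FPKM in WT and 15.9 FPKM in the library labelled Ezh2-cKO. In Cd73P the Ezh2 levels were 5.38 and 3.45 FPKM. A level summed over all exons cannot show the loss of a floxed exon, and the libraries are therefore called the libraries labelled Ezh2-cKO. Sex-linked transcripts also differed, with Xist at 47.0 to 52.2 FPKM in WT and 95.6 to 240.4 FPKM in the libraries labelled Ezh2-cKO, and Ddx3y at 10.4 to 11.6 FPKM and 0.46 to 0.70 FPKM. Genotype and this difference cannot be told apart.

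The promoters of the members were read from RefSeq on GRCm38.p6, as 250 bases upstream of each start site, in 17 windows for the 10 members. They were searched on both strands for 6 motifs of 6 letters that these factors are known to bind: TAATCC for Otx2 and Crx, TGCTGA for Nrl, CAGATG for Neurod1, AAGTCA for Nr2e3, AGGTCA for the other nuclear receptors and GAAAGT for Prdm1. AAGTCA and AGGTCA differ in 1 letter, and GAAAGT can run into AAGTCA. A match is a description of the letters and not a bound site. The windows of Crx, Neurod1 and Nrl are shown because Crx and Neurod1 were the members with 2 matches of the same motif in a window, and because Nrl and Crx were among the highest members in Cd73P. Capitals mark the matches, and all 3 windows lie on the minus strand, at chr7:15879956-15880205 (Crx), chr2:79456637-79456886 (Neurod1) and chr14:55524253-55524502 (Nrl).
Crx: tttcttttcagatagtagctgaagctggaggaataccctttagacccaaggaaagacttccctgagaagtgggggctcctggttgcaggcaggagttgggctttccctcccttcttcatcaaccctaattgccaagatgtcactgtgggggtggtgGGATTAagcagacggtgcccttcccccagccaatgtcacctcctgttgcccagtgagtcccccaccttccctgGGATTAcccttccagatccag
Neurod1: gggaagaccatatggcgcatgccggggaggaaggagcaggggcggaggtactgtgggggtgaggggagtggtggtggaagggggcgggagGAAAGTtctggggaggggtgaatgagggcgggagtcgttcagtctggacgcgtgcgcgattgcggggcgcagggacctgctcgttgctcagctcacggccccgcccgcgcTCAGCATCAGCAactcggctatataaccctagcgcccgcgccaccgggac
Nrl: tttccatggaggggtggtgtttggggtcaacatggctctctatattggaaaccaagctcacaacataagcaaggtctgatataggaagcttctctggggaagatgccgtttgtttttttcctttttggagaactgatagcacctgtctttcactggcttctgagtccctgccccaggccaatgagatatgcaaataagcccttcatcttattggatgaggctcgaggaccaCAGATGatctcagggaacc

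The Crx window held TAATCC, the core read by Crx itself and by Otx2, as GGATTA on the opposite strand at 94 to 89 and at 21 to 16 bases before the start. Of all 32851 promoters in the table, 6.25% held this motif and 0.295% held it 2 or more times. In Neurod1 the Nrl motif TGCTGA stood as adjacent copies on the opposite strand, at 50 to 45 and 44 to 39 bases before the start, with a share of 16.1% of all promoters for any match and 1.66% for 2 or more. Neurod1 also held GAAAGT, found in 12.3% of all promoters. The Nrl window held CAGATG, the E-box of Neurod1, at 19 to 14 bases before the start, a motif of 14.4% of all promoters. Among the other members, TAATCC was found in a window of Otx2 and of Thrb, TGCTGA in a window of Otx2 and of Rorb, and CAGATG in a window of Otx2. AAGTCA was found in Esrrb, a motif of 13.1% of all promoters, AGGTCA in Rxrg and Thrb, a motif of 4607 of the promoters, and GAAAGT in Esrrb. The windows of Nr2e3 and Prdm1 were among the 7 windows with no match. Of the 17 member windows, the Otx2 and Crx motif was in 3, the Nrl motif in 3 and the Neurod1 motif in 2. The Nr2e3 motif was in 1, that of the other nuclear receptors in 2 and that of Prdm1 in 2. Crx and Neurod1 were shown for their repeated matches, so the shares given beside them are no measure of enrichment. Whether members held any motif more often than all promoters was not tested.

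The members were first compared between the fractions, to ask where the photoreceptor programme lay after the sort. In WT, 7 of the 10 members were higher in Cd73P by at least 1.5-fold, namely Crx, Nrl, Nr2e3, Rorb, Neurod1, Prdm1 and Esrrb, where 9.07% of all 21700 genes compared were. Rxrg was the single member that was lower, where 27.9% of all genes were. The libraries labelled Ezh2-cKO again gave 7 higher and 1 lower, with the same genes in each direction, against 8.40% and 29.1% of 21699 genes. The median difference over the members was 2.07 in WT and 1.95 in the libraries labelled Ezh2-cKO, while the median over all genes was -0.05 and -0.09. Of the genes that reached an FPKM of 1 in either library, 15.4% were higher and 45.9% lower in Cd73P in WT, with a median of -0.47, while for the libraries labelled Ezh2-cKO the shares were 13.8% and 45.6% and the median -0.46.

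**Figure D1:**
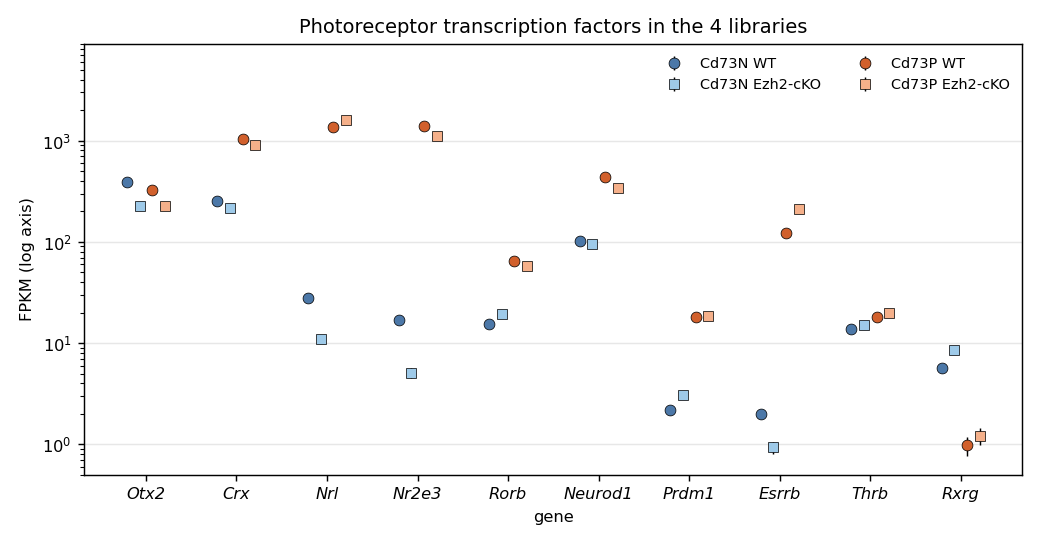
FPKM of the 10 transcription factors (log axis) in each of the 4 libraries, with bars of the 95% counting interval that are mostly smaller than the symbols. Nrl, Nr2e3 and Esrrb show the widest gaps between Cd73N (blue) and Cd73P (orange), Otx2 and Thrb the narrowest, Rxrg has both Cd73P libraries below both Cd73N libraries, and Otx2 in WT has Cd73P slightly below Cd73N.

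The homeodomain factors Otx2 and Crx behaved differently in the sort. Otx2 (mm9, chr14:49277859-49282547) was at 388 ± 2.81 FPKM (SE) in Cd73N WT, 224 ± 2.08 in Cd73N labelled Ezh2-cKO, 328 ± 2.55 in Cd73P WT and 225 ± 2.19 in Cd73P labelled Ezh2-cKO. Both fractions of a genotype were thus nearly level, and the WT libraries were the higher ones in each fraction. The Cd73P minus Cd73N difference of Otx2 was -0.24 (SE 0.015) in WT and 0.0050 (SE 0.019) in the libraries labelled Ezh2-cKO, the latter within counting error. The WT value changed sign when the libraries were scaled, to 0.094 by the median ratio and 0.17 by the FPKM sum. Crx (chr7:16451296-16465304) was at 254 ± 1.89 and 215 ± 1.57 FPKM in Cd73N WT and labelled Ezh2-cKO, and at 1038 ± 3.63 and 909 ± 3.60 FPKM in Cd73P. Both Cd73P libraries lay above both Cd73N libraries, by 2.03 (SE 0.012) in WT and 2.08 (SE 0.012) in the libraries labelled Ezh2-cKO. By FPKM this was 4.09-fold and 4.23-fold.

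Nrl, the leucine zipper factor that commits precursors to rods, and Nr2e3, the orphan nuclear receptor that represses cone genes in rods, were the highest members in Cd73P. Nrl (chr14:56137815-56143802) was at 27.7 ± 0.731 and 11.0 ± 0.388 FPKM in Cd73N WT and labelled Ezh2-cKO, and at 1377 ± 5.75 and 1615 ± 6.07 FPKM in Cd73P. Nr2e3 (chr9:59790578-59797886) was at 16.8 ± 0.586 and 5.09 ± 0.291 FPKM in Cd73N and at 1392 ± 4.58 and 1117 ± 3.99 FPKM in Cd73P, in the same order. For both genes the Cd73P libraries were far above the Cd73N libraries, and the Cd73N library labelled Ezh2-cKO was the lowest of the 4. The difference between fractions was 5.58 (SE 0.037) and 7.07 (SE 0.047) for Nrl, 49.6-fold and 146.6-fold by FPKM. For Nr2e3 it was 6.29 (SE 0.048) and 7.52 (SE 0.069), or 82.8-fold and 219.6-fold, the widest gap of the 10 members in WT. In Cd73P WT, Nr2e3 ranked 13, Nrl 14 and Crx 20 of 21710 genes.

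Esrrb, an orphan receptor needed for rod survival, showed a gap of the same order at a lower level. It (chr12:87702067-87862578) was at 1.98 ± 0.108 FPKM in Cd73N WT, 0.93 ± 0.0688 in Cd73N labelled Ezh2-cKO, 124 ± 1.09 in Cd73P WT and 210.1 ± 1.39 in Cd73P labelled Ezh2-cKO. The lowest and the highest of its values were both in libraries labelled Ezh2-cKO. The difference between fractions was 5.38 (SE 0.054) in WT and 6.77 (SE 0.052) in the libraries labelled Ezh2-cKO, 62.3-fold and 225.8-fold by FPKM. Rorb, a retinoid-related receptor that acts upstream of Nrl, was at 15.3 ± 0.229 and 19.6 ± 0.240 FPKM in Cd73N and at 64.4 ± 0.552 and 58.2 ± 0.502 FPKM in Cd73P (chr19:19005099-19185686). Its fraction difference of 2.004 (SE 0.024) in WT was larger than the 1.53 (SE 0.021) of the libraries labelled Ezh2-cKO.

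Neurod1, a basic helix-loop-helix factor that keeps photoreceptors alive and acts in cone opsin expression, was high in both fractions. It (chr2:79292798-79296793) was at 102 ± 1.19 and 94.7 ± 1.07 FPKM in Cd73N and at 439.8 ± 2.35 and 339 ± 2.27 FPKM in Cd73P, with differences of 2.104 (SE 0.018) and 1.83 (SE 0.019). The GENCODE annotation gives Neurod1 201 exonic bases in common with Cerkl on the same strand. Cerkl itself was at 2.54, 4.80, 51.0 and 66.1 FPKM in the 4 libraries, well below Neurod1. The loci listed with the FPKM do not overlap, with Cerkl at chr2:79172648-79269145. GENCODE also gives Nr2e3 61 exonic bases shared with Gm15507, which has no FPKM entry. Whether reads from these other transcripts were counted for Neurod1 or Nr2e3 was not tested. Prdm1 (chr10:44156981-44178493), a zinc finger repressor that keeps young photoreceptors from the bipolar fate, was at 2.16 ± 0.115 and 3.09 ± 0.136 FPKM in Cd73N and at 18.3 ± 0.369 and 18.6 ± 0.360 FPKM in Cd73P. The Cd73P libraries were the higher ones, by 2.61 (SE 0.059) in WT and 2.26 (SE 0.055) in the libraries labelled Ezh2-cKO, and they were level with each other.

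The cone receptors differed from each other. Rxrg (chr1:169528493-169569754), the retinoid X receptor of cones, was at 5.62 ± 0.271 and 8.59 ± 0.327 FPKM in Cd73N and at 0.98 ± 0.110 and 1.21 ± 0.120 FPKM in Cd73P. It was 5.76-fold lower in Cd73P in WT and 7.08-fold lower in the libraries labelled Ezh2-cKO by FPKM, with differences of -1.74 (SE 0.0998) and -2.12 (SE 0.092). Thrb (chr14:18493474-18870602) encodes the thyroid hormone receptor beta, whose retinal isoform is found in cones. It was at 13.7 ± 0.314 and 14.9 ± 0.257 FPKM in Cd73N and at 18.0 ± 0.347 and 19.96 ± 0.346 FPKM in Cd73P, so that the Cd73P libraries were slightly above the Cd73N libraries, by 0.37 (SE 0.041) and 0.40 (SE 0.033). Neither value passed 1.5-fold, and both did when libraries were scaled by their FPKM sums or median ratios. Thrb has 2 start sites in the tables whose fragments were summed per gene, so the isoforms were not separated.

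**Figure D2:**
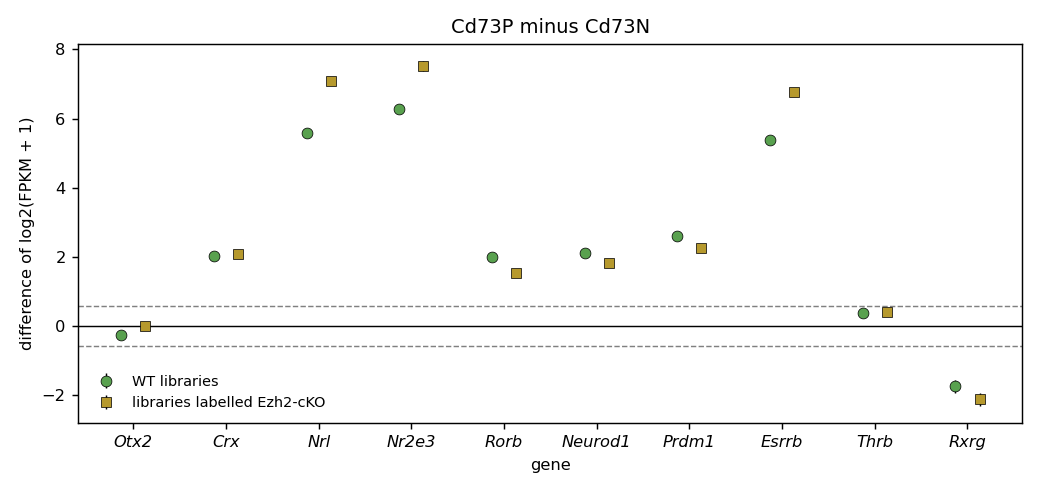
Difference of log2(FPKM + 1) between Cd73P and Cd73N for each transcription factor in WT libraries (circles) and libraries labelled Ezh2-cKO (squares), with bars of the 95% counting interval and dashed lines at 1.5-fold. The 7 genes Crx, Nrl, Nr2e3, Rorb, Neurod1, Prdm1 and Esrrb lie above the upper line in both genotypes, Otx2 and Thrb lie between the lines, and Rxrg lies below.

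The order of levels changed between the fractions. In Cd73N WT it ran from Otx2 at 388 FPKM through Crx, Neurod1, Nrl, Nr2e3, Rorb, Thrb, Rxrg and Prdm1 to Esrrb at 1.98 FPKM. In Cd73P WT it ran from Nr2e3 at 1392 FPKM through Nrl, Crx, Neurod1, Otx2, Esrrb, Rorb, Prdm1 and Thrb to Rxrg at 0.98 FPKM. Otx2 therefore moved from first place to the fifth, and Esrrb from last place to the sixth. Neighbours in these orders did not differ beyond counting error for Prdm1 and Esrrb in Cd73N WT and for Prdm1 and Thrb in Cd73P WT. In the libraries labelled Ezh2-cKO every neighbouring pair was further apart than counting error by these SE. The FPKM of Otx2, however, lay above its own upper bound in every library. Its order beside Crx in Cd73N (224 and 215 FPKM) and beside Esrrb in Cd73P (225 and 210.1 FPKM) is therefore uncertain. The same holds for Nr2e3 beside Rorb in Cd73N WT, at 16.8 and 15.3 FPKM. Otx2 and Crx were thus close at the top of Cd73N labelled Ezh2-cKO, and in Cd73P labelled Ezh2-cKO Nrl was above Nr2e3, with 1615 against 1117 FPKM. In Cd73P WT Nrl and Nr2e3 were close, at 1377 and 1392 FPKM. Nr2e3 lay above its own upper bound there, so which of them led in WT is uncertain.

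Relatives of the members from the same gene families did not share their fraction pattern as a list. Of 18 such genes, 4 were higher and 7 were lower in Cd73P in WT, with a median difference of -0.40, and for the libraries labelled Ezh2-cKO 3 were higher and 8 lower, at a median of -0.30. The most abundant was Neurod4, a relative of Neurod1 that is active in bipolar and amacrine development, at 350 and 261 FPKM in Cd73N and 12.4 and 3.69 FPKM in Cd73P. Thra, the other thyroid hormone receptor gene, was at 182 and 119 FPKM in Cd73N and at 25.1 and 18.5 FPKM in Cd73P, while Thrb did not pass the threshold. Among relatives chosen after their values were seen, Rora, a relative of Rorb, was at 13.3 and 13.5 FPKM in Cd73N and 29.5 and 32.2 FPKM in Cd73P. Rxra, a relative of Rxrg, was at 2.74 and 4.15 FPKM in Cd73N and at 21.3 and 21.1 FPKM in Cd73P. The receptor families were thus split between the fractions, with Thra and Rxrg higher in Cd73N and Rxra and Rora higher in Cd73P. Esrrg, a relative of Esrrb, was at 64.3 and 53.2 FPKM in Cd73N and 15.2 and 17.0 FPKM in Cd73P, also the reverse of the member of its family.

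A list of 22 other regulators of retinal precursors and photoreceptors held 21 genes of the tables. Of these, 7 were higher and 9 lower in Cd73P in WT, with a median of -0.30, and for the libraries labelled Ezh2-cKO 8 were higher and 8 lower, at a median of -0.25. Among those of them with an FPKM of 10 or more in either library the medians turned to 0.81 and 0.88. Samd7, a rod repressor that works with Polycomb proteins, led the list, at 8.06 and 8.84 FPKM in Cd73N and 266 and 186 FPKM in Cd73P. Rax, a homeodomain factor of the early eye field that persists in Müller glia and photoreceptors, was at 39.4 and 95.4 FPKM in Cd73N and 77.7 and 93.1 FPKM in Cd73P. Samd7 thus had a fraction gap like that of Nrl and Nr2e3 in direction, whereas the fraction difference of Rax was 0.96 in WT and -0.04 under the Ezh2-cKO label.

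The cell type markers placed these patterns. Rod genes were higher in Cd73P for 29 of the 30 that could be compared in WT, with a median of 3.36, and for 30 of 31 under the Ezh2-cKO label, with a median of 3.804. The 2 most abundant were Pdc, which binds the transducin beta-gamma subunits, at 244 and 282 FPKM in Cd73N and 5501 and 6196 FPKM in Cd73P, and Sag, rod arrestin, at 389 and 462 FPKM and 4081 and 5229 FPKM. All 12 cone genes were lower in Cd73P, with medians of -3.70 and -5.25, led by Pde6h at 1237 and 2018 FPKM in Cd73N and 70.8 and 46.7 FPKM in Cd73P and by Gngt2 at 1103 and 1272 FPKM and 90.2 and 29.8 FPKM. Of the other lists, 18 of 19 bipolar genes, 15 of 15 Müller glia genes and 10 of 10 microglia genes were lower in Cd73P in WT. Their medians were -4.13, -3.22 and -1.46. The remaining lists were mixed, with 4 of 9 amacrine, 5 of 11 ganglion cell, 2 of 7 horizontal cell and 4 of 9 endothelial genes lower. These stand beside 27.9% of all genes, and 1 amacrine and 1 endothelial gene were higher. The medians of these lists were -0.26, -0.51, -0.26 and -0.24. Rxrg had the direction of the cone, bipolar, Müller glia and microglia lists, and Thrb did not pass the threshold in either direction.

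The libraries labelled Ezh2-cKO were then compared with WT in each fraction, to ask how the photoreceptor regulators differed with the genotype label. In Cd73N, 4 of the 10 members were lower by at least 1.5-fold, namely Otx2, Nrl, Nr2e3 and Esrrb, where 1.71% of all 21701 genes were lower, and 0 were higher, where 7.18% were. Of the genes that reached an FPKM of 1 in either library, 2.87% were lower and 11.6% were higher. In Cd73P, Esrrb was the single member called higher, where 2.26% of 21702 genes were, and 0 were lower, where 2.38% were. With the FPKM of 1 these shares were 4.31% and 4.53%. The median over the members was -0.17 in Cd73N and -0.06 in Cd73P, beside a median of 0 over all genes in each fraction. The comparisons within fractions and within genotypes use the same 4 libraries and are not independent.

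In Cd73N the lower members were led by the rod factors. Nr2e3 fell from 16.8 to 5.09 FPKM, a difference of -1.55 (SE 0.084) or 3.30-fold, and Nrl from 27.7 to 11.0 FPKM, a difference of -1.26 (SE 0.059) or 2.52-fold. Otx2 fell from 388 to 224 FPKM, a difference of -0.79 (SE 0.017), from the highest level of the members. Esrrb was at 1.98 and 0.93 FPKM, a difference of -0.63 (SE 0.073) or 2.13-fold by FPKM, beside 1.73-fold for Otx2. At this low level the pseudocount mattered, since a value of 0.1 gave -1.02 and a value of 5 gave -0.24. With a pseudocount of 5 or scaling by the FPKM sum Esrrb was no longer called, and it was left out by the FPKM filter of 10 and, for its 0.93 FPKM, by the setting without a pseudocount, while the other 3 were called in all of these. Crx and Neurod1 did not pass the threshold, with differences of -0.24 (SE 0.015) and -0.10 (SE 0.023), and that of Neurod1 turned to 0.047 under scaling by the FPKM sum. The remaining members had differences above 0 that did not pass it: 0.34 (SE 0.026) for Rorb, 0.37 (SE 0.071) for Prdm1, 0.12 (SE 0.039) for Thrb and 0.53 (SE 0.077) for Rxrg. Rxrg passed it with a pseudocount of 0.1, without a pseudocount, and under either scaling.

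In Cd73P the members were closer together. Esrrb rose from 124 to 210.1 FPKM, a difference of 0.76 (SE 0.016) or 1.70-fold, and this was the member whose call differed in direction between the fractions. Otx2 was at 328 and 225 FPKM, and its difference of -0.54 (SE 0.018) stayed short of 1.5-fold and passed it, among the settings tried, under scaling by the FPKM sum. Neurod1 was at -0.37 (SE 0.012), Nr2e3 at -0.32 (SE 0.007), Crx at -0.19 (SE 0.008) and Rorb at -0.14 (SE 0.017). Nrl was at 0.23 (SE 0.008), Thrb at 0.14 (SE 0.036), Rxrg at 0.16 (SE 0.112) and Prdm1 at 0.03 (SE 0.038), the last 2 within counting error, and Prdm1 turned to -0.02 under scaling by the FPKM sum. Nrl and its target Nr2e3, which were lower together in Cd73N, thus had opposite signs in Cd73P. Otx2 was the member with the lowest difference in Cd73P.

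**Figure D3:**
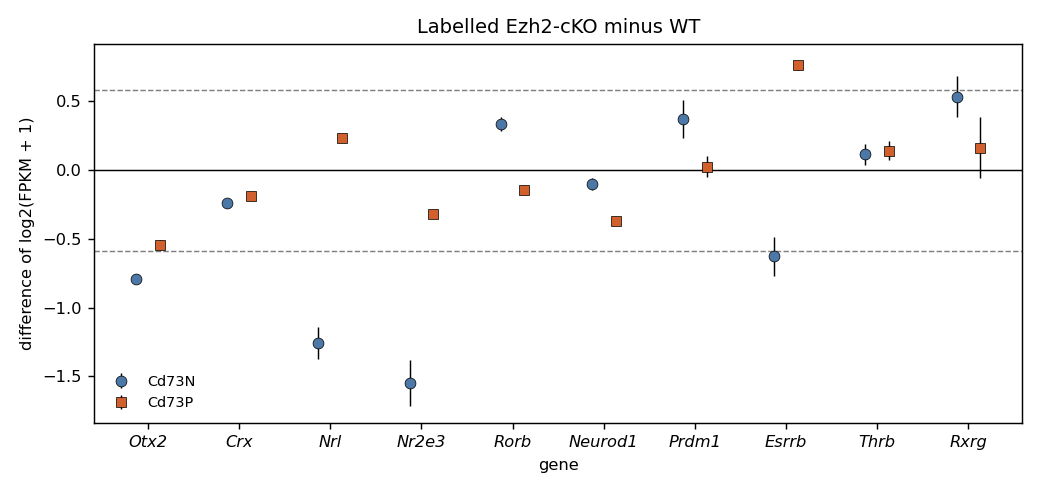
Difference of log2(FPKM + 1) between the library labelled Ezh2-cKO and WT for each transcription factor in Cd73N (circles) and Cd73P (squares), with bars of the 95% counting interval and dashed lines at 1.5-fold. Otx2, Nrl, Nr2e3 and Esrrb lie below the lower line in Cd73N, and Esrrb alone lies above the upper line in Cd73P.

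Family relatives and other regulators had genotype calls in both fractions. The shares of all genes to set beside their counts are those given above, for Cd73N 7.18% higher and 1.71% lower, for Cd73P 2.26% and 2.38%. Among the 18 relatives, 2 were higher and 1 was lower in Cd73N, with a median of 0.01 that turned to -0.36 above an FPKM of 10, and 1 was higher and 3 were lower in Cd73P, with a median of -0.03. Thra, at 182 and 119 FPKM in Cd73N, was the lower relative there, and Neurod4, at 12.4 and 3.69 FPKM in Cd73P, had the most negative difference of the list in that fraction, -1.51. Among the 21 other regulators, 4 were higher and 0 lower in Cd73N, with a median of 0.14, and 1 was higher and 2 were lower in Cd73P, with a median of 0.00. The higher regulator in Cd73P was Mef2c, a MADS-box factor, at 0.77 and 10.3 FPKM, which is named after its values were seen.

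Markers of the cell types moved with the genotype label, and their values stand beside those of the members. In Cd73N, 7 of 32 rod genes were lower, among them Pde6b, Cnga1, Fscn2, Gnat1, Cngb1 and Slc24a1, and 0 were higher, with a list median of 0.04. The lower genes included Pde6b at 8.28 and 2.18 FPKM and Gnat1 at 36.2 and 20.6 FPKM. The 6 of them with a value in both fractions had WT fraction differences of 3.14 to 6.42, median 5.65, and the 24 other rod genes with such a value had differences of -3.31 to 5.59, median 3.002. The ranges overlapped: Rp1 and Pde6a, chosen after their values were seen, had fraction differences of 5.59 and 5.48 and genotype differences in Cd73N of 0.30 and 0.03. Nrl, Nr2e3 and Esrrb, the lower rod factors of Cd73N, had WT fraction differences of 5.58, 6.29 and 5.38. The summed FPKM of the 30 rod genes with OK status in all 4 libraries was 3773 in Cd73N WT and 4105 in the library labelled Ezh2-cKO, and no rod gene was at 0 in either. The part of remaining rod cells or rod RNA in these member differences was not tested.

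Bipolar cells also use Otx2. Bipolar genes were lower for 12 of 19 in Cd73N, with a median of -0.75, and for 14 of 19 in Cd73P, with a median of -1.29. Their summed FPKM was 3289 and 1844 in Cd73N and 242 and 76.8 in Cd73P, with none at 0, and Pcp2, their most abundant gene, was at 653 and 336 FPKM in Cd73N. Otx2 had differences of the same sign in both fractions, -0.79 and -0.54, and the part of the bipolar signal in them was not tested. Cone genes were higher for 3 of 12 in Cd73N, with a median of 0.33 and sums of 4815 and 6207 FPKM, and lower for 9 of 12 in Cd73P, with a median of -0.99 and sums of 429 and 203 FPKM. Rxrg, at 5.62 and 8.59 FPKM in Cd73N and 0.98 and 1.21 FPKM in Cd73P, had differences above 0 in both fractions and did not pass the threshold. No cone gene was at 0, and the part of the cone signal in the Rxrg values was not tested.

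Rod genes in Cd73P were higher for 4 of 30, with 25 of 30 above 0 and a median of 0.35, and the sum of the 30 with OK status was 30263 FPKM in WT and 40143 FPKM in the library labelled Ezh2-cKO. Esrrb and Nrl had differences above 0 in that fraction and Nr2e3, Crx, Neurod1, Otx2 and Rorb had differences below 0. These members thus did not all have the sign of the rod list median. Nor did all rod genes, with Pde6b, for example, at -0.32. Müller glia genes were higher for 15 of 15 in Cd73N, with a median of 2.099 and sums of 1309 and 6280 FPKM, led by Glul at 257 and 1759.8 FPKM and Apoe at 357 and 1532 FPKM. In Cd73P 12 of 15 were higher, with a median of 0.94 and sums of 105 and 250.2 FPKM, and none was at 0 in any library. FPKM are shares of a library, and the part of the Müller glia signal in the Cd73N values of Otx2, Nrl, Nr2e3 and Esrrb was not tested. Among the remaining lists in Cd73N, microglia genes were at summed FPKM of 95.4 and 143 (4 of 10 higher), amacrine genes at 45.7 and 123 (3 of 9), endothelial genes at 58.97 and 127 (2 higher and 1 lower of 9), ganglion cell genes at 17.8 and 43.9 (2 higher and 1 lower of 11) and horizontal cell genes at 94.4 and 63.9 (0 of 7). In Cd73P the sums of these 5 lists were between 1.62 and 31.5 FPKM.

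**Figure D4:**
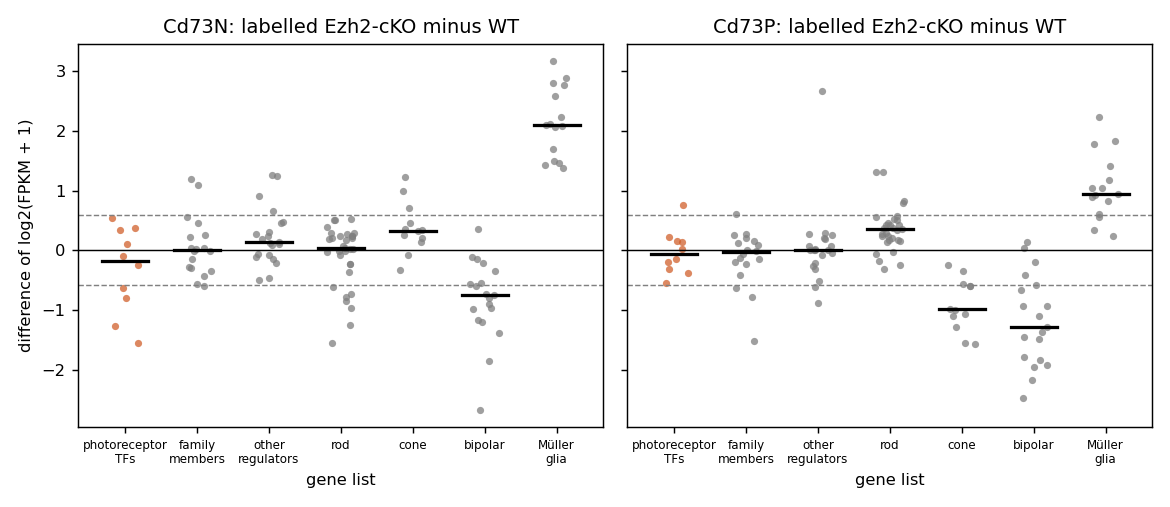
Difference of log2(FPKM + 1) between the library labelled Ezh2-cKO and WT for each gene of 7 lists in Cd73N (left) and Cd73P (right), with a black bar at the median of a list and dashed lines at 1.5-fold. The 10 photoreceptor transcription factors (orange) have medians of -0.17 and -0.06, bipolar genes lie mostly below 0 in both fractions, Müller glia genes lie above 0, and all cone genes lie below 0 in Cd73P.

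The profiles of the members over the 4 libraries were last set beside those of 7622 genes with FPKM of at least 10 in a library, by the distance of log2(FPKM + 1) after each gene was centred on its mean. With 4 libraries such a distance is a description. Nr2e3 was nearest to Pde6b, the beta subunit of rod phosphodiesterase, at a distance of 0.16, followed by the rod channel gene Cnga1 and by Nrl. Esrrb was nearest to Slc24a1, the rod sodium-calcium exchanger, at 0.17, followed by Pde6a and Nrl. Nrl itself was nearest to Slc24a1 at 0.55, Pde6b and Esrrb, with Nr2e3 in place 4. The 3 nearest genes of Nrl, Nr2e3 and Esrrb were rod phototransduction genes, apart from Nrl in the lists of the other two and Esrrb in that of Nrl. Nr2e3 and Esrrb were not among the 3 nearest of each other.

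The other members had closer neighbours of other kinds. Crx was nearest to Cdhr1, a photoreceptor cadherin, at a distance of 0.029, with Cdhr1 at 151, 124, 606 and 530.0 FPKM in the 4 libraries, and next to Tmem107 and 8030462N17Rik. Neurod1 was nearest to Crb1, a polarity gene of photoreceptors and Müller glia, at 0.090, then Dpysl3 and Ncoa2, and Crx held place 6 in its order. Rorb was nearest to Hvcn1, Fyco1 and Mtmr6, and Prdm1 to Tub, Eepd1 and Dnaic2. Otx2 was nearest to Fam132a at 0.14, then Ehd4 and Oxct1, and Thrb to Patl1 at 0.029, then Zbtb25 and Rnf40. Rxrg, below an FPKM of 10 in every library, was not compared.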

How the data were processed

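Poly(A) RNA of FACS-sorted Cd73N and Cd73P cells was sequenced as 36-base single-end reads, on a kit with no stated strand marking. The authors aligned reads to mm9 with TopHat2 2.0.8b (coverage search, at most 50 hits for a read) and FPKM was computed with Cufflinks 2.1.1 on RefSeq genes, per the study's methods and the submitters' processing notes, which also name bcl2fastq 1.8.4. The deposited FPKM tables held 23021 gene entries per library with lower and upper bounds and a status, and FPKM was not scaled between libraries. The tables gave no read totals, and absolute depth is unknown.

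Entries with the same symbol were summed (251 symbols) and 731 small RNA symbols were left out, which gave 21827 genes, 21688 of them OK in all 4 libraries. A gene not OK in either library of a comparison was left out of it. The pseudocount was 1. The SE took the width of the bounds as 4 SE. FPKM lay above its own upper bound for Otx2 and Neurod1 in all libraries and for Nr2e3 in all but Cd73N labelled Ezh2-cKO. By the implied fragments and the SE, Crx and Nrl in the Cd73P libraries were among the values below their lower bound. For all of these the SE, and the order of close values, are uncertain. Relative depth was the median ratio of implied fragments per FPKM over 3495 entries. Coordinates are on mm9 with 1 added to the listed start, which equalled the GENCODE start for 10206 of 21166 symbols, against 638 without it. Promoter windows are on GRCm38.p6 and were not converted.

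Members and lists were chosen with earlier results of these data known. Named were all members, Ezh2 and Nt5e, the 2 genes of highest mean FPKM in each other list, and the 3 nearest profiles of each member with FPKM of at least 10. Other names were chosen after their values were seen. Some genes that met the rule are not reported here. Samd11, Tfap2a and Tfap2b were not matched by symbol. Alternatives were pseudocounts of 0.1 and 5, no pseudocount, FPKM filters of 1 and 10, 2 scalings and a 2-fold threshold. For the counts of members called, a further setting kept only calls whose deposited bounds did not overlap. Scripts (Python 3.11.15, pandas 2.3.3, numpy 2.4.6) were tested on simulated data.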

Additional observations from a re-analysis of the deposited data

Results flagged for a closer look

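A difference of opposite sign in the 2 groups compared drew attention to 4 results, each with 1 library per group. None of these differences was tested. The genotype difference of Nrl was -1.26 in Cd73N and 0.23 in Cd73P, 1.49 apart (SE 0.060, counting error only). That of Esrrb was -0.63 in Cd73N and 0.76 in Cd73P, 1.39 apart (SE 0.075). Rorb had the reverse order, 0.34 in Cd73N and -0.14 in Cd73P, a gap of -0.48 (SE 0.032). The difference of Otx2 between Cd73P and Cd73N was -0.24 in WT and 0.0050 in the libraries labelled Ezh2-cKO, 0.25 apart (SE 0.025), and the second value lay within counting error of 0.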

How the results depend on the processing

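No paired analysis was possible because each group held 1 library, and for the same reason no replicate could be left out. Of 72 counts of members called under other settings, 62 stayed within 1.5 times the value reported. The FPKM filter of 1 dropped no member, so the counts under it could not change. With an FPKM filter of 10 the count lower in Cd73P became 0 for WT and 0 for the libraries labelled Ezh2-cKO, and it became 0 for WT without a pseudocount, because Rxrg then failed the filter. In Cd73N the count of members higher in the library labelled Ezh2-cKO became 1 (Rxrg) with a pseudocount of 0.1, without a pseudocount and under either scaling, and the count lower became 2 (Nrl and Nr2e3) at a 2-fold threshold. In Cd73P the count lower became 1 (Otx2) when scaled by the FPKM sum, and the count higher became 0 at a 2-fold threshold.

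Scaling moved Cd73P minus Cd73N differences by 0.34 (median ratio) and 0.42 (FPKM sum) in WT and by 0.27 and 0.21 in the libraries labelled Ezh2-cKO, and genotype differences by 0.062 and 0.15 in Cd73N and 0.043 and -0.046 in Cd73P. Of 270 member differences recomputed, 4 changed sign, for Otx2, Neurod1 and Prdm1 as given in the text, and no called difference did. Of the 270, 40 came from the FPKM filter of 1 and 34 from that of 10, which drop genes and cannot move a value. Under the other settings 103 lay outside counting error of the value reported. Of the medians of the lists, 12 changed sign. Depth limits the precision of Rxrg most, with 79 implied fragments in Cd73P WT. The spread between animals or repeated sorts is unknown.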

Other observations

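Transcripts at the loci of the homeodomain factors, chosen after their values were seen, gave these values. Otx2os1, named as an opposite-strand transcript of Otx2 (mm9, chr14:49288963-49413023), was at 67.2 FPKM in Cd73N WT, 35.0 in Cd73N labelled Ezh2-cKO, 17.7 in Cd73P WT and 18.1 in Cd73P labelled Ezh2-cKO. It was lower in Cd73P than in Cd73N by more than 1.5-fold in both genotypes, with differences of log2(FPKM + 1) of -1.87 (SE 0.071) and -0.91 (SE 0.075), unlike Otx2. In Cd73N it had a genotype difference of -0.92 (SE 0.055), beside -0.79 for Otx2, while in Cd73P its difference was 0.04 (SE 0.088), beside -0.54. Crxos1 (chr7:16467966-16489379), beside Crx, was at 7.63, 9.31, 15.5 and 20.6 FPKM in the same order, with fraction differences of 0.93 (SE 0.110) and 1.07 (SE 0.095). None of these differences has a replicate check.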
